A study of Mus musculus with 8 samples.

Results

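The comparison described here asked which genes a line of mouse embryonic fibroblasts (MEFs) carrying the STING mutant N154S could still raise or lower when it was given DNA. It consists of 2 of the 8 arrays of the study, the N154S cells treated with double-stranded DNA (dsDNA) in the transfection reagent Lipofectamine 2000 for 9 h and the N154S control cells, chosen by their titles. Gene expression was also measured in cells with hSTING, with the variant R284S and with the empty pBabe vector, each as 1 dsDNA array and 1 control array. The cells of all 8 arrays were STING-/- MEFs, labelled as primary, so the controls also lacked the mouse's own STING. The series' design text calls N154S a SAVI mutant and hSTING the wild-type form. The labels do not state the promoter that drives the constructs, the number of clones in a line, the DNA sequence, or whether the control cells received the reagent without DNA. With 1 array per line and treatment there are no replicates, so a difference between 2 arrays carries no test and no SD, and a difference between lines includes any other difference between the cell populations.

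STING is an adaptor of the endoplasmic reticulum. When the enzyme cGAS meets DNA in the cytosol it makes the cyclic dinucleotide cGAMP, which binds STING, and STING then moves towards the Golgi and recruits the kinase TBK1, which activates the transcription factor IRF3, while NF-kB is activated alongside. IRF3 and NF-kB act on genes such as the one for interferon beta, and secreted interferon in turn acts through its receptor on interferon-stimulated genes. N154S is a gain-of-function change found in SAVI, STING-associated vasculopathy with onset in infancy, an autoinflammatory disease with continuous interferon signalling.

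Values are array signals on the log2 scale, and differences are dsDNA minus control on that scale. The 22180 genes named by a single symbol had a median signal of 4.47 on both N154S arrays, and of 4.42 to 4.46 on the other 6 arrays. A gene was counted as higher or lower at a difference of 2-fold or more, if the brighter signal was at or above that median. Where the dimmer of both signals was under this median, the fold was computed against the median and is written as at least that size. Across probe sets the 2 N154S arrays correlated at r = 0.987, a description across features that are not independent, and 92.0% of genes differed by less than 0.5 in either direction. Of the 12 fibroblast markers, 11 were at or above the median on the dsDNA array and 12 on the control array, at signals of 4.32 to 12.58 and 4.91 to 12.73. Of the 12 macrophage and dendritic cell markers 3 were at or above the median on each N154S array. Their signals were 2.54 to 5.96 with dsDNA and 2.50 to 6.10 without. The lowest was the pan-leukocyte gene Ptprc at 2.54 and 2.50, and the macrophage gene Adgre1 read 2.74 and 2.92. The remaining marker lists are given at the end, and some of their members were also at or above the median. The probe set of the mouse gene Sting1 read 3.81 with dsDNA and 3.89 in control cells, below the median, and no probe set is named for the introduced construct, so the labels could not be checked with it.

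In N154S cells 84 of 22180 genes (0.379%) were 2-fold or more higher with dsDNA and 24 (0.108%) were lower. The higher genes included inflammatory enzymes, cytokines and chemokines together with a part of the interferon-stimulated genes, while the lower ones included the smooth muscle gene Lmod1, the endothelin gene Edn1 and small RNAs. Of the 84 higher genes 79 were protein coding, and of the 24 lower genes 15 were protein coding, 7 were miRNA genes and 2 were snoRNA genes. The other higher genes included 3 that RefSeq lists as transcribed pseudogenes, Cxcl11, Mx1 and Gbp11. For comparison, 445 genes (2.01%) were higher and 111 (0.5%) lower in hSTING cells, 6 (0.0271%) higher and 9 (0.0406%) lower in R284S cells, and 33 (0.149%) higher and 8 (0.0361%) lower in vector cells. By these counts the N154S line had more counted genes than the R284S and vector lines and fewer than the hSTING line, and each count rests on 1 pair of arrays. In such bulk RNA, fewer cells that express a gene and less of its RNA per cell cannot be told apart.

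The promoters of 5 genes introduce the main groups of higher genes, an immunometabolic enzyme (Acod1), a guanylate-binding protein (Gbp5), interferon beta (Ifnb1), a chemokine (Cxcl10) and a cystine transporter (Slc7a11), of which the last 3 were added after their values had been seen. Each sequence is the 250 bases before the gene's start listed by RefSeq in assembly GRCm38.p6, read 5′ to 3′ on the strand of the gene. Capitals mark matches to 5 patterns searched on both strands. They are an interferon response pattern and an NF-kB pattern, each of 10 bases of which the middle 2 are free and both seen in capitals in the Cxcl10 promoter, TGAGTCA of AP-1 sites, TGACNNNGC of antioxidant response elements, and TTGCATCA of amino acid response elements. The Acod1 promoter (chr14:103046762-103047011, plus strand) held none of the 5 patterns in this window.
Acod1: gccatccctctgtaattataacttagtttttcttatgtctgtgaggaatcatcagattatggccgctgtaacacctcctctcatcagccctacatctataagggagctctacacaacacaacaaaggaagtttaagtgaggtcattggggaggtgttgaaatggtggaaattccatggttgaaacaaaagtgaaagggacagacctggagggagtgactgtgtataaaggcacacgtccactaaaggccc
The Gbp5 promoter (chr3:142496684-142496933, plus strand) held the interferon response pattern at 165 to 156 bases before the start and the NF-kB pattern at 77 to 68 bases before it, both on the opposite strand.
Gbp5: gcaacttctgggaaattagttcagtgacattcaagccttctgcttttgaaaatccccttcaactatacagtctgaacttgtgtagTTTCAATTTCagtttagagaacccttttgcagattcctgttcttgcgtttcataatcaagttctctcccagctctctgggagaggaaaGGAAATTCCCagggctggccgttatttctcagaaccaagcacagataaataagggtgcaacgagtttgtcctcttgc
The Ifnb1 promoter (chr4:88522795-88523044, minus strand) held the NF-kB pattern at 116 to 107 bases before the start.
Ifnb1: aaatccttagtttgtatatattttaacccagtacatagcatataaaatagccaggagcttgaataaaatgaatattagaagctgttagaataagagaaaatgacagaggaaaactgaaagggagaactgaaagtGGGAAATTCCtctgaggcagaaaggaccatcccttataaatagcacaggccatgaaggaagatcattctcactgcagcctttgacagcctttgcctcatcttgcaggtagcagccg
The Cxcl10 promoter (chr5:92348890-92349139, minus strand) held the interferon response pattern at 213 to 204 bases, the NF-kB pattern at 159 to 150 bases and, overlapping each other, TGAGTCA at 74 to 68 bases and TGACNNNGC on the opposite strand at 76 to 68 bases before the start.
Cxcl10: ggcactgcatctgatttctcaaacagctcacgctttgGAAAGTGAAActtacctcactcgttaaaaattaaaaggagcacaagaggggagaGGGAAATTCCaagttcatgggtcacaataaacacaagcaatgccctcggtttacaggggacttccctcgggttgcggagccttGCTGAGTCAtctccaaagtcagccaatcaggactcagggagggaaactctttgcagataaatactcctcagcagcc
The Slc7a11 promoter (chr3:50443614-50443863, minus strand) held TTGCATCA on both strands, at 66 to 59 bases on the opposite strand and at 47 to 40 bases on its own strand before the start, and no interferon response or NF-kB pattern.
Slc7a11: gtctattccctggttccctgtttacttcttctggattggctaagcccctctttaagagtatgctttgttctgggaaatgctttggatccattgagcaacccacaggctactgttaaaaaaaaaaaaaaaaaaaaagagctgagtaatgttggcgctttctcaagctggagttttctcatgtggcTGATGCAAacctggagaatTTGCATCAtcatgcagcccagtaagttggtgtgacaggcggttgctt

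Over the window from 250 bases before to 50 bases after the start, the interferon response pattern was found for 14 of the 58 higher genes of N154S cells with a promoter in the RefSeq table (24.1%), against 657 of all 16918 genes with one (3.88%). The NF-kB pattern was found for 9 of the 58 (15.5%), against 276 of 16918 (1.63%), and TGAGTCA for 10 (17.2%), against 934 (5.52%). TGACNNNGC was found for 13 (22.4%), against 2523 (14.9%), and TTGCATCA for 2 (3.45%), against 150 (0.887%). The set of higher genes thus held the interferon and NF-kB patterns at a larger share than all promoters did. Of the 286 genes with a promoter that were 2-fold or more higher in hSTING cells and not counted in N154S cells, 52 (18.2%) held the interferon response pattern and 6 (2.1%) held the NF-kB pattern. Of the 13 lower genes of N154S cells with a promoter, 1 held the interferon response pattern and 0 held the NF-kB pattern. These are counts of letters in a window, given without a test, and a gene with several listed starts was counted if any of them held the pattern.

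Acod1, which encodes the mitochondrial enzyme that makes itaconate, read 10.42 in N154S cells with dsDNA and 7.18 in N154S control cells, a 9.45-fold difference and the largest of all named genes. The same gene read 10.76 with dsDNA and 3.24 without in hSTING cells, 9.90 and 9.65 in R284S cells, and 3.91 and 3.63 in vector cells. Its signal was therefore close together in the dsDNA arrays of N154S and hSTING cells, while the N154S control array lay well above the hSTING control array. Ccrl2, an atypical receptor that binds the chemoattractant chemerin, read 6.86 with dsDNA and 4.01 in control N154S cells, at least 5.24-fold higher. In hSTING cells Ccrl2 read 8.27 and 3.17, and on the R284S and vector arrays it stayed between 3.60 and 4.45. Tlr2, a receptor for bacterial lipopeptides, read 8.17 with dsDNA and 6.44 without, 3.32-fold higher, and Tlr3, the endosomal receptor for double-stranded RNA, 9.50 and 8.19.

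Of the 53 measured members of the NF-kB and inflammatory list 13 were 2-fold or more higher in N154S cells and 0 lower, 44 had a difference above 0, and the list median was 0.45. Among all genes 0.379% were counted as higher, 46.8% had a difference above 0 and the median was -0.01. Besides those above, the counted members were the alarmin Il33, the neutrophil chemokines Cxcl2 and Cxcl3, the inducible nitric oxide synthase Nos2, the NF-kB feedback inhibitor Tnfaip3, and the cytokines Csf2, Il6, Lif and Il1a. The other probe set of Csf2 differed by 0.23 in N154S cells, against 1.36 for the one used. Il33 read 8.72 with dsDNA and 6.45 in control N154S cells, a 4.82-fold difference, against 9.64 and 4.54 in hSTING cells. Nos2 read 8.09 and 6.64 in N154S cells, against 7.66 and 4.67 in hSTING cells, so its dsDNA signal in N154S cells was the higher of the 2. Il6 read 9.71 and 8.36 and Tnfaip3 8.43 and 6.99 in N154S cells. Tnf itself was not counted, since its difference of 0.92 (5.08 with dsDNA, 4.16 without) fell short of 2-fold, whereas in hSTING cells it read 7.50 and 3.44. In hSTING, R284S and vector cells 28, 0 and 1 members of this list were counted as higher, at medians of 1.18, 0.08 and 0.05.

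Other signalling molecules outside the NF-kB list were also among the 20 counted genes with the largest positive differences. Tslp, an epithelial and stromal cytokine that acts on dendritic cells and lymphocytes, read 8.58 with dsDNA and 6.13 in control N154S cells, a 5.46-fold difference. In hSTING cells it read 9.67 and 5.35, and on the 4 R284S and vector arrays 5.69 to 6.24. Bmp2, a ligand of bone morphogenetic protein receptors, read 7.38 and 5.42 in N154S cells, 3.89-fold higher, and 8.27 and 4.08 in hSTING cells. Cd274, which encodes the immune checkpoint ligand PD-L1, read 8.52 and 6.56 in N154S cells, 3.89-fold higher as well, and 9.12 and 5.25 in hSTING cells. Cd274 and the interleukin 15 receptor chain Il15ra (6.28 with dsDNA, 5.02 without) were the 2 of 22 immune surface ligands that were counted as higher, against 7 in hSTING cells. Over all genes these shares were 0.379% in N154S and 2.01% in hSTING cells. For Tslp, Bmp2, Cd274 and Il15ra the N154S dsDNA array lay above the N154S control array and below the hSTING dsDNA array.

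**Figure D1:**
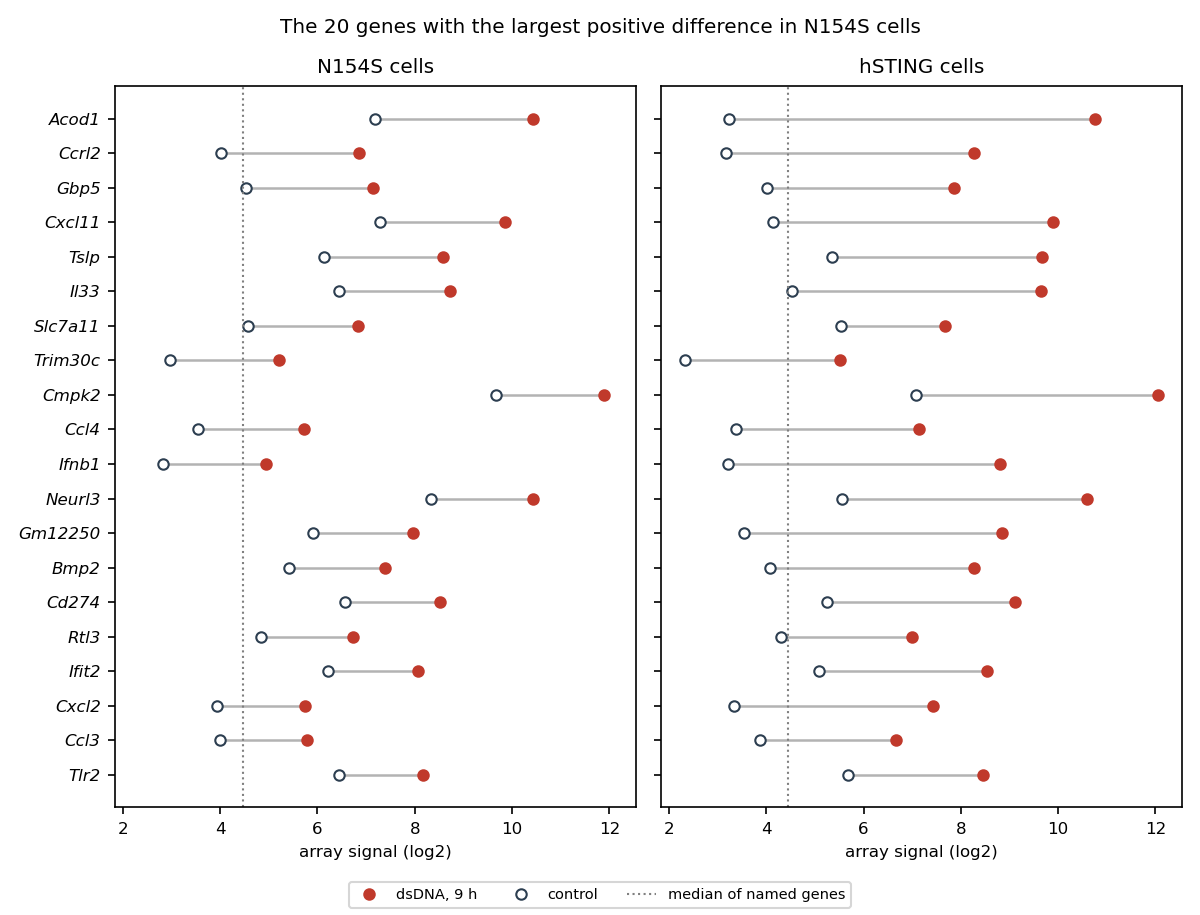
Signals (log2, horizontal axis) of the 20 genes with the largest positive difference among those counted as higher in N154S cells, on the N154S arrays (left) and the hSTING arrays (right). Filled points are dsDNA arrays, open points control arrays, each point is 1 array, and the dotted line is the median of the named genes. Acod1 read 10.42 with dsDNA and 7.18 without in N154S cells, and 10.76 and 3.24 in hSTING cells.

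All 13 members of the interferon-induced chemokine list had a difference above 0 in N154S cells, with a median of 0.77, and 5 were 2-fold or more higher. Among all genes 46.8% had a difference above 0 and 0.379% were counted as higher. Cxcl11, which RefSeq lists as a transcribed pseudogene, read 9.86 with dsDNA and 7.28 in control N154S cells, a 5.98-fold difference. It read 9.89 and 4.14 in hSTING cells, 8.97 and 8.99 in R284S cells, and 4.08 and 4.42 in vector cells. Cxcl10, a ligand of the chemokine receptor CXCR3 of T cells, read 12.59 and 11.33 in N154S cells, 2.39-fold higher, against 12.86 and 8.98 in hSTING cells, 12.26 and 12.21 in R284S cells, and 8.21 and 5.13 in vector cells. The N154S control signal of both genes thus lay above those of the hSTING and vector controls and below that of the R284S control. The monocyte chemokines Ccl4 and Ccl3 read 5.72 and 5.79 with dsDNA and 3.55 and 4.0 without, at least 2.38-fold and 2.50-fold higher, and the membrane-bound chemokine Cx3cl1 read 7.54 and 5.99. Ccl5, which attracts T cells and monocytes, read 12.79 with dsDNA and 12.22 without, a difference of 0.57, against 12.70 and 8.60 in hSTING cells. Cxcl9 read 8.45 and 7.68 in N154S cells, against 9.72 and 5.51 in hSTING cells.

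Among the interferon genes 1 was counted. Ifnb1, which encodes interferon beta, was the 1 of 18 measured type I and III interferon genes that was counted as higher in N154S cells, at 4.95 with dsDNA and 2.82 in control cells, at least 1.39-fold. In hSTING cells it read 8.80 and 3.21, at least 20.4-fold higher, in R284S cells 3.04 and 4.06, and in vector cells 3.18 on both arrays. The dsDNA signal of Ifnb1 in N154S cells was thus just above the array median and far below that in hSTING cells. Ifna4, an early interferon alpha gene, read 5.37 and 5.16 in N154S cells and 9.03 and 4.80 in hSTING cells, and Ifna6 read 3.38 and 3.40 in N154S cells and 7.04 and 3.01 in hSTING cells. The interferon alpha genes are near-identical copies whose probes can cross-react, so single members are uncertain. Over the list the median difference was 0.16 in N154S, 0.15 in hSTING, 0.08 in R284S and -0.08 in vector cells, with 5 members 2-fold or more higher in hSTING cells. Counted as higher were 0.379% of all genes in N154S and 2.01% in hSTING cells.

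The list of interferon-stimulated genes had 78 measured members, of which 14 were counted as higher in N154S cells and 0 as lower, 75 had a difference above 0, and the median was 0.57. Over all genes 0.379% were counted as higher in N154S cells and 46.8% had a difference above 0. The counted members were the guanylate-binding and immunity-related GTPases Gbp5, Gbp7, Iigp1 and Irgm2, the antiviral effectors Ifit2, Rsad2 and Oasl1, the RNA sensor Ifih1, the mitochondrial nucleotide kinase Cmpk2, the ISG15 ligase Herc6, the DNA-binding protein Ifi205, Parp14, Phf11b and Mx1. RefSeq lists Mx1 as a transcribed pseudogene, so its signal does not stand for a working antiviral protein. Gbp5, which promotes inflammasome assembly, read 7.15 with dsDNA and 4.54 in control N154S cells, a 6.11-fold difference. In hSTING cells it read 7.87 and 4.02, and on the R284S and vector arrays it stayed between 3.48 and 4.42. Cmpk2 read 11.88 and 9.66 in N154S cells, 12.06 and 7.07 in hSTING cells, 10.49 and 10.38 in R284S cells, and 5.90 and 3.57 in vector cells. Ifit2, which inhibits translation of viral RNA, read 8.06 and 6.21 in N154S cells, 3.61-fold higher, and 8.53 and 5.09 in hSTING cells. On all 3 genes the dsDNA arrays of N154S and hSTING cells lay within 1 log2 unit of each other.

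Some other interferon-stimulated genes were near their dsDNA level already in N154S control cells. Irf7, a transcription factor of interferon genes, read 11.02 on both N154S arrays. Isg15, a ubiquitin-like modifier, read 11.27 with dsDNA and 11.05 without, and Usp18, which removes it, read 11.93 and 11.64. The same 2 genes differed by 2.17 and 3.14 in vector cells. Further uncounted members fell just short of 2-fold in N154S cells, such as Mx2, at 8.34 with dsDNA and 7.37 without, and Igtp, at 9.81 and 8.85. Gbp4, at 4.36 and 3.16, differed by more than 2-fold but was too dim to be counted. Over the whole list the median signal was 8.65 with dsDNA and 8.14 without in N154S cells, 8.86 and 6.79 in hSTING cells, 7.08 and 7.07 in R284S cells, and 5.34 and 4.39 in vector cells. The median differences were 0.57, 1.74, 0.05 and 0.58 in N154S, hSTING, R284S and vector cells, and 14, 62, 0 and 16 members were counted as higher. N154S and vector cells therefore had like median differences at median signals more than 3 log2 units apart, and these 2 differences share no array.

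Upstream of these genes, the transcription factor Irf1 was the 1 of 17 members of the interferon transcription and receptor list that was 2-fold or more higher in N154S cells, at 6.99 with dsDNA and 5.95 without. Stat2 read 9.93 and 9.51, and Irf9 8.56 and 8.55. Among the 29 genes of DNA sensing and clearance 0 were counted as higher or lower in N154S cells, where the median difference was 0.01, against 5 higher in hSTING cells. The sensor Cgas read 5.63 with dsDNA and 5.56 without, Tbk1 read 8.19 and 7.89, and Irf3 read 5.53 and 5.81. Of the 20 class I antigen presentation genes 17 had a difference above 0 in N154S cells and 0 were counted, at a median of 0.29, while 12 were counted as higher in hSTING cells, where the median was 1.16. Among all genes 46.8% had a difference above 0 in N154S cells and 0.379% were counted as higher. The peptide transporter Tap1 read 9.10 with dsDNA and 8.60 without in N154S cells.

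**Figure D2:**
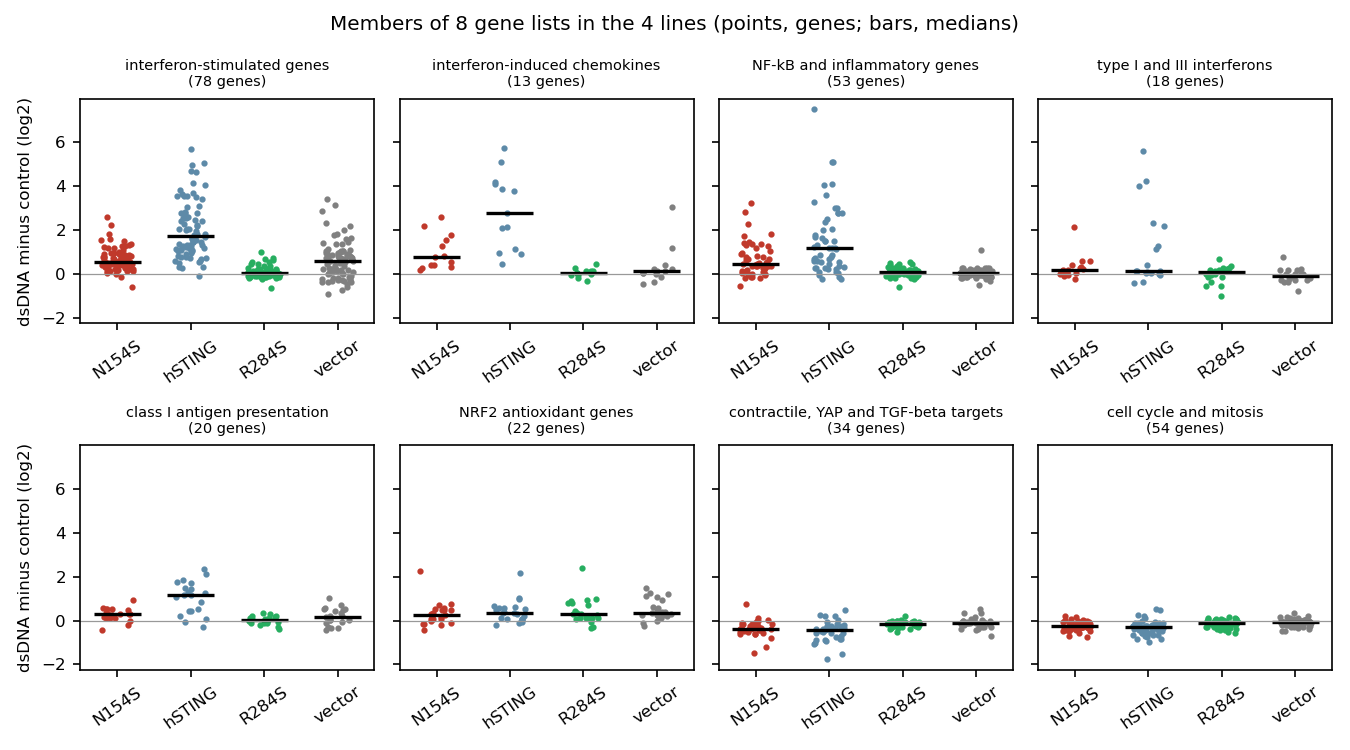
Differences (dsDNA minus control, log2, vertical axis) of the members of 8 gene lists in N154S, hSTING, R284S and vector cells. Each point is a gene, each column 1 pair of arrays, and the bar is the median over members, which for interferon-stimulated genes was 0.57, 1.74, 0.05 and 0.58.

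The genes counted in N154S cells were mostly genes that were also counted as higher or lower in hSTING cells, and these 2 differences share no array. Of the 84 genes higher in N154S cells 76 were higher in hSTING cells as well, which is 90.5% of the N154S list and 17.1% of the hSTING list of 445 genes. Over all genes 2.01% were higher in hSTING cells and 0.379% in N154S cells. The 84 genes had a median difference of 1.31 in N154S, 2.79 in hSTING, 0.13 in R284S and 0.13 in vector cells, and the hSTING difference was the larger one for 75 of them. Choosing genes at 2-fold or more in N154S cells sets a floor for their N154S difference and none for the others. Their median signal was 7.73 with dsDNA and 6.28 without in N154S cells, 8.26 and 5.20 in hSTING cells, 6.56 and 6.43 in R284S cells, and 4.95 and 4.70 in vector cells. For 68 of the 84 genes the dsDNA signals of N154S and hSTING cells lay within 1 log2 unit, and for 67 the N154S signal was the lower one. The N154S control signal lay within 1 log2 unit of the hSTING dsDNA signal for 14 of the 84. The share of all genes within this distance was not computed. By the medians, N154S cells had the lower signal with dsDNA and the higher signal without it, compared with hSTING cells.

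The 8 genes higher in N154S and not counted in hSTING cells were Apol7a, Apol7e, Arg2, Gm12185, Gm6034, Liph, Trp53inp1 and Vmn2r125. For Gm12185, Apol7a, Liph, Apol7e and Gm6034 the N154S control signal was below the median. Their folds are bounds of at least 1.01, 1.14, 1.3, 1.51 and 1.79, so a 2-fold rise is not certain for them. Apol7a differed by 1.11 in hSTING cells too, where its dsDNA signal of 3.95 was below the median. Arg2, the mitochondrial arginase, read 5.58 with dsDNA and 4.25 without in N154S cells, at least 2.16-fold higher, and 5.27 and 4.38 in hSTING cells. Trp53inp1, a p53 target, read 8.63 and 7.62 in N154S and 8.19 and 7.28 in hSTING cells. The hSTING differences of Arg2 and Trp53inp1 were thus close to the 2-fold threshold. The apolipoprotein L gene Apol7e read 5.06 and 3.86 in N154S cells and 3.43 and 3.66 in hSTING cells. Vmn2r125, which RefSeq lists as a pseudogene, read 9.87 and 8.80 in N154S cells and 9.53 and 9.34 in hSTING cells.

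Conversely, 369 of the 445 genes higher in hSTING cells were not counted as higher in N154S cells. All 445 had a median difference of 0.54 in N154S and 1.49 in hSTING cells, 422 of them had a difference above 0 in N154S cells, and 197 differed there by less than 0.5 in either direction. The 10 with the largest hSTING difference were Ifit1bl1, Ccl12, Ifi209, Ifi208, Ifna4, Cxcl9, Ccl5, Tnf, Ifna6 and the cytokine gene Tnfsf18. This order rests on the differences as read. For 7 of the 10 the hSTING control signal was below the median, so their folds are bounds, such as at least 2.97-fold for Ifi208 and at least 11.2-fold for Ifit1bl1, beside 18.8-fold for Ifna4 and 18.5-fold for Cxcl9. Some of them had a high signal on both N154S arrays and others were below the median on both. Ccl5, at 12.79 and 12.22, and Ifi209, at 8.85 with dsDNA and 8.14 without, had a high signal. Below the median were Ifit1bl1, at 3.84 with dsDNA and 3.19 without in N154S cells against 7.93 and 2.21 in hSTING cells, and the monocyte chemokine Ccl12, at 3.35 and 2.53 against 7.31 and 2.18. Members of the Ifi200 family share sequence, so Ifi205, Ifi208 and Ifi209 cannot be told apart with certainty on the array.

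**Figure D3:**
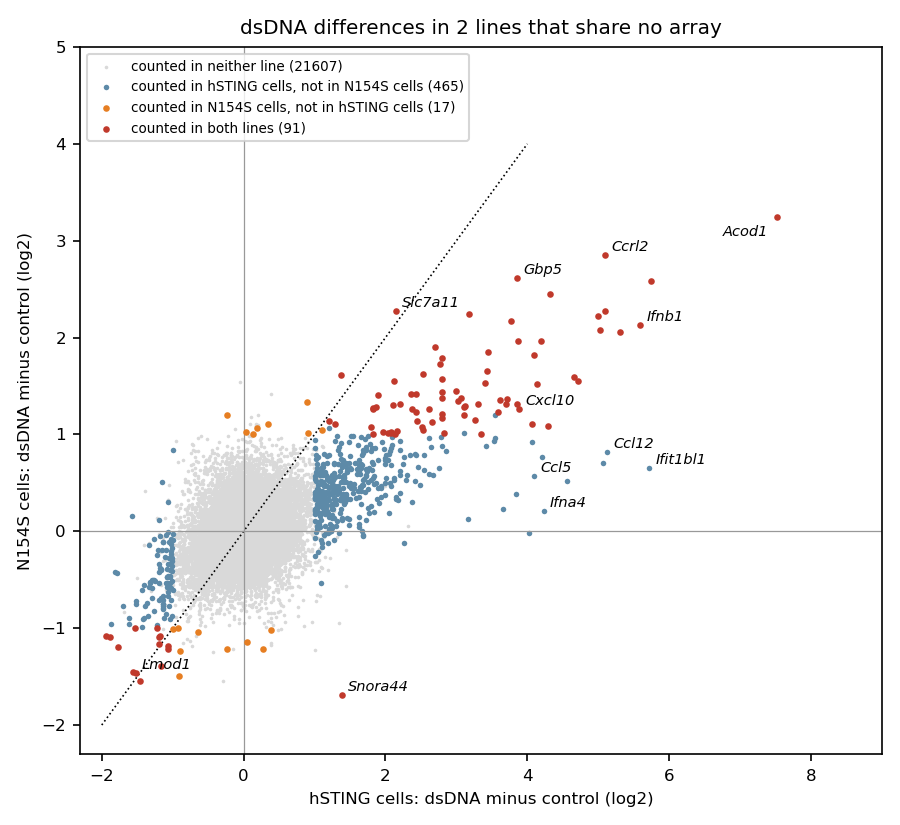
Each point is a gene, with its difference (dsDNA minus control, log2) in hSTING cells on the horizontal and in N154S cells on the vertical axis. The dotted diagonal marks equal differences. Of the 84 genes higher in N154S cells 75 had the larger difference in hSTING cells, and Snora44 lies below 0 in N154S and above 0 in hSTING cells.

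In vector cells, which carry no STING construct, 33 genes (0.149%) were 2-fold or more higher with dsDNA, and 10 of them were among the 84, namely Cmpk2, Cxcl10, Gbp7, Ifi205, Ifih1, Iigp1, Irgm2, Parp14, Slc7a11 and Tlr3. This is 11.9% of the N154S list and 30.3% of the vector list. Ifih1 read 11.18 with dsDNA and 9.80 without in N154S cells and 6.42 and 5.26 in vector cells. Acod1, Ccrl2, Gbp5, Tslp, Il33 and Ifnb1 were not counted in vector cells, where their differences lay between -0.13 and 0.28. With R284S cells 1 higher gene was shared, Slc7a11. Slc7a11, the cystine-glutamate exchanger that supplies cystine for glutathione, was counted in all 4 lines, at 6.84 with dsDNA and 4.57 without in N154S cells, 7.68 and 5.53 in hSTING cells, 7.39 and 4.99 in R284S cells, and 6.81 and 5.31 in vector cells. Its other probe set differed by 0.43 in N154S cells, so its 4.82-fold difference rests on 1 of 2 probe sets. Of the 22 NRF2 antioxidant genes it was the 1 counted in N154S cells, and the haem oxygenase Hmox1 read 10.81 with dsDNA and 10.04 without. In N154S cells 0.379% of all genes were counted as higher.

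Of the 24 genes lower with dsDNA, the protein-coding ones are described first. Lmod1, leiomodin of smooth muscle, read 6.31 with dsDNA and 7.77 in control N154S cells, 2.75-fold lower. It read 6.68 and 8.20 in hSTING cells, 6.99 and 7.25 in R284S cells, and 8.03 and 8.30 in vector cells. Edn1, the precursor of the vasoconstrictor endothelin, read 5.60 and 6.79 in N154S cells, 2.28-fold lower, and 4.94 and 6.71 in hSTING cells. Both had a difference of more than 2-fold in the N154S and hSTING lines and a smaller one in the same direction in R284S and vector cells. The protocadherin Pcdh18 read 5.90 and 7.35 in N154S cells, and Osr1, a transcription factor of mesenchyme and connective tissue, 7.50 and 8.59, against 6.11 and 8.0 in hSTING cells. Others were the hyaluronan-degrading protein Cemip, the protease Adamts1, the transcription regulator Id4, the sphingosine-phosphate receptor S1pr3 and the tubulin Tubb3.

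Among all genes 46.8% had a difference above 0 in N154S cells and 0.108% were counted as lower. Of the 34 genes of the contractile, YAP and TGF-beta list 2, Edn1 and Lmod1, were 2-fold or more lower in N154S cells and 0 higher, and 3 had a difference above 0. The median was -0.36 in N154S, -0.43 in hSTING, -0.15 in R284S and -0.12 in vector cells. The calponin Cnn1 read 10.08 with dsDNA and 10.71 without, and Tgfb3 8.92 and 9.69, both under 2-fold. Of the 54 cell cycle genes 0 were counted and 5 had a difference above 0, with a median of -0.24 in N154S, -0.29 in hSTING, -0.12 in R284S and -0.08 in vector cells. The mitotic transcription factor Foxm1 read 6.05 and 6.81 and the proliferation marker Mki67 7.42 and 7.98. Of the 53 fibroblast matrix genes 0 were counted in N154S cells and 7 had a difference above 0, with a median of -0.15. The 12 fibroblast markers, some of them matrix genes, had a median of -0.20 with 1 above 0, and the 9 muscle, neural and adipocyte markers a median of 0.27 with 7 above 0. Their part in these differences was not tested.

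**Figure D4:**
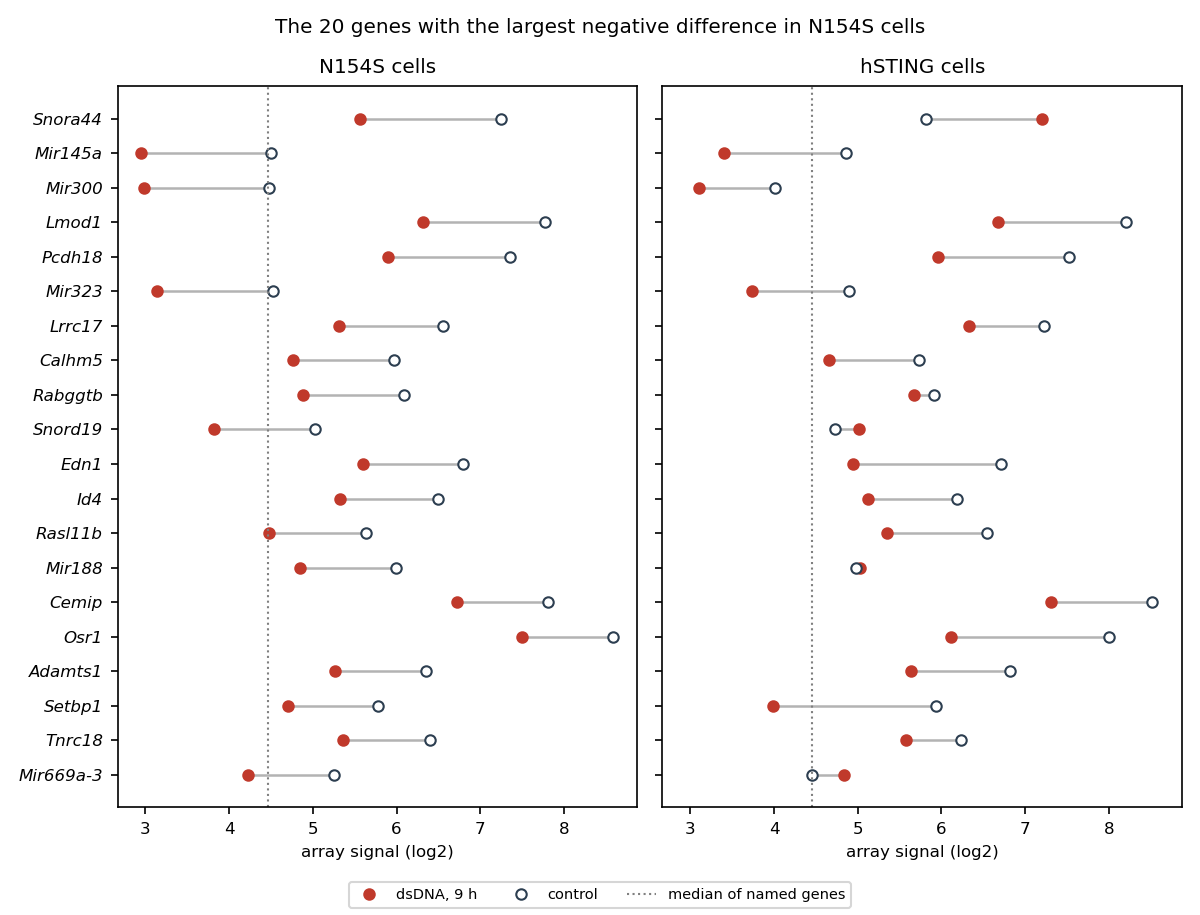
Signals (log2, horizontal axis) of the 20 genes with the largest negative difference among those counted as lower in N154S cells, on the N154S arrays (left) and the hSTING arrays (right). Filled points are dsDNA arrays, open points control arrays, each point is 1 array, and the dotted line is the median of the named genes. Lmod1 read 6.31 with dsDNA and 7.77 without in N154S cells, and Snora44 runs in opposite directions in the 2 lines.

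Of the 24 lower genes 14 were 2-fold or more lower in hSTING cells as well, which is 58.3% of the N154S list and 12.6% of the 111 hSTING genes. Over all genes 0.5% were lower in hSTING cells and 0.108% in N154S cells. The 111 had a median difference of -0.53 in N154S cells, and 5 of them had a difference above 0 there. Of the 24 genes 4 had a difference above 0 in hSTING cells, the small RNAs Snora44 at 1.38, Mir669a-3 at 0.39, Snord19 at 0.28 and Mir188 at 0.05. The snoRNA Snora44 read 5.56 with dsDNA and 7.25 without in N154S cells, 5.47 and 7.40 in R284S cells, and 5.52 and 6.70 in vector cells, but 7.20 and 5.82 in hSTING cells. Snord19, another snoRNA, read 3.82 and 5.03 in N154S cells and 5.01 and 4.73 in hSTING cells. The array signal of such genes can come from host transcripts or precursors and does not measure the mature small RNA. Of the 43 measured miRNA genes between Dlk1 and Dio3, an imprinted cluster, 4 were 2-fold or more lower in N154S cells, where 0.108% of all genes were, and 33 had a difference below 0, with a median of -0.24. Of the 4, Mir300, Mir323 and Mir679 had control signals of 4.48, 4.53 and 4.5, barely above the array median. Their folds are bounds of at least 1.01, 1.04 and 1.02, so a 2-fold fall is not certain for them. Mir667 read 5.07 with dsDNA and 6.08 without. In hSTING cells 6 were lower and the median was -0.41, and in R284S and vector cells 0 were lower with medians of -0.10 and -0.08. Of the other 435 miRNA genes 3 were lower in N154S cells and 229 had a difference below 0, with a median of -0.02. The median signal of the cluster in N154S cells was 3.29 with dsDNA and 3.65 without, below the array median.

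The difference between the N154S response and the mean response of the hSTING, R284S and vector lines was tested for all genes with limma, against the unevenness of the response among those 3 lines. After Benjamini-Hochberg adjustment 0 of 22180 genes were higher and 0 lower (0.0%), and the smallest adjusted p was 0.999. At an unadjusted p under 0.05 there were 699 genes. Acod1 had a coefficient of 0.557 with a standard error of 2.89 (limma, adjusted p = 0.999), beside differences as read of 7.52 in hSTING cells, 0.25 in R284S and 0.28 in vector cells. The hSTING control signal and both vector signals of Acod1 were below the median, and its hSTING fold is at least 79.3-fold. The 699 genes with an unadjusted p under 0.05 are fewer than this threshold would give among 22180 genes if no gene differed. With 2 residual degrees of freedom, a gene that misses its threshold is not shown to respond alike in all lines.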

How the data were processed

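RNA was extracted with an RNeasy kit, and 300 ng per sample was labelled with the GeneChip WT PLUS kit, per the labels' protocols. The deposited values are log2 array signals made, per the submitters' processing notes, with Affymetrix Expression Console 1.3.1.187, with an algorithm not given in the sources used here. Array medians of 3.79 to 3.85 and sorted values within 0.25 of each other show nearly equal distributions. Of 41345 probe sets, 23521 had 1 symbol in the GEO platform annotation, 1814 had several and 16010 were not listed, and 23328 of the Entrez identifiers were found in RefSeq GRCm38.p6. For 1082 genes with several probe sets the one with the highest mean was used, which left 22180 genes.

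From these, log2 differences and counts (2-fold, brighter signal at or above the median of named genes) were computed in Python 3.11.15. The interaction came from limma 3.58.1 (R 4.3.3), with terms for construct, dsDNA and dsDNA in N154S cells, and the fit was also run on simulated data. Those data had independent noise and no dsDNA response in the other lines. They do not show how the test performs for genes that respond strongly in hSTING cells alone. The fit takes the lone N154S pair to vary like the others. Named were the 20 highest and 20 lowest counted genes, members of 34 lists, and the 10 genes with the largest hSTING difference not counted in N154S cells. Genes named beyond these, among them the 8 counted in N154S and not in hSTING cells and further counted lower genes, were chosen after their values were seen, as were 3 promoters. Of the promoters the rule chose, those of Acod1 and Gbp5 are printed. The genes and lists were chosen with earlier results of these data known. Alternatives changed the threshold, the brightness condition, the normalisation, the probe set rule and the lines in the fit. The number of arrays limits the precision.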

Additional observations from a re-analysis of the deposited data

Results flagged for a closer look

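Snora44 was 2-fold or more lower with dsDNA in N154S cells, at -1.69, and 2-fold or more higher in hSTING cells, at 1.38, so the 2 differences lie -3.07 apart on the log2 scale. This difference between the lines was not tested, since each rests on 1 array a side.

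Probe sets without a single gene symbol entered no comparison. Of the 1814 probe sets with several symbols 11 were 2-fold or more higher with dsDNA in N154S cells and 1 was lower, with extremes of 1.55 and -1.38. Of the 16010 probe sets not listed in the annotation 104 were higher and 113 lower, with extremes of 3.55 and -3.45. Both are larger shares than the 0.379% and 0.108% of named genes, whose extremes were 3.24 and -1.69. Unlisted probe sets thus passed the same 2-fold rule more often than named genes, in both directions.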

How the results depend on the processing

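The 84 higher genes of N154S cells became 293 at a 1.5-fold and 24 at a 3-fold threshold. The 24 lower genes became 239 at 1.5-fold, 1 at 3-fold, 38 without the brightness condition, 8 with the brightness condition at the 75th percentile and 15 among protein-coding genes only. The 76 higher genes shared with hSTING cells became 217 at 1.5-fold. With the mean over probe sets Slc7a11 was at 1.35 in place of 2.27, the sterol list had 0 higher members in place of 1 and the growth factor list 1 in place of 2. The NF-kB and inflammatory list had 12 higher members in place of 13. Of 150 values of named genes under quantile normalisation, median centring and the mean over probe sets 149 moved little and 0 changed sign, and of 102 list medians 102 moved little. Here moved little means a change under 0.262, which is larger than many of the list medians themselves. Median centring could hardly move any value, since both N154S arrays had a median of 4.47. The mean over probe sets cannot move a gene with 1 probe set. These counts therefore say little about stability. Quantile normalisation moved the median of all genes by 0.005. In the limma test 0 genes passed under each of the 6 alternatives, with 242 to 1337 genes at an unadjusted p under 0.05 and a smallest adjusted p of 0.719, reached without the hSTING pair. Only the fit without the hSTING pair had more genes at an unadjusted p under 0.05 than this threshold would give if no gene differed. No paired analysis was possible because the labels carry no replicate numbers and each group has 1 array, beyond the construct term of the limma fit, which pairs the dsDNA and control arrays of a line. Dim signals compress differences, so the folds of genes below the array median are bounds.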

Other observations

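The genes named next were also counted as higher in N154S cells, as were 0.379% of all genes, and they were picked here after their values were seen. The arginine and lysine transporter Slc7a2 read 8.14 with dsDNA and 6.48 in control N154S cells, against 9.27 and 5.84 in hSTING cells, and the mitochondrial arginase Arg2 and the nitric oxide synthase Nos2, which also handle arginine, were counted as well. The aryl hydrocarbon receptor gene Ahr read 7.11 and 6.08 in N154S cells and its target Tiparp 7.95 and 6.93, although the other probe set of Tiparp differed by -0.1. Ch25h, which makes the antiviral sterol 25-hydroxycholesterol, read 10.88 and 9.46, with 0.28 for its other probe set, and was the 1 of 25 sterol and lipid genes counted. Atf3, a stress-induced transcription factor, read 7.63 and 6.34 and was the 1 of 34 immediate early genes counted. The growth factors Angpt1, at 6.34 and 5.19 with 0.29 for its other probe set, and Pdgfb, at 5.91 and 4.83, act on vessels. On these genes the R284S difference stayed under 0.5 in either direction.

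Over all genes 0.379% were counted as higher and 0.108% as lower in N154S cells. The remaining lists held 0 counted members in N154S cells, apart from Atf3 and Ch25h above, Trp53inp1 among 22 p53 targets, and Bmp2, Angpt1 and Osr1 among 46 growth factor and Wnt genes. Their median differences were 0.22 for 22 cell death genes, 0.09 for 31 ATF4 amino acid stress genes, 0.05 for p53 targets, 0.03 for 29 lysosomal and autophagy genes, 0.02 for 20 oxidative phosphorylation genes and 0.02 for the immediate early genes. They were -0.02 for 24 ribosomal protein genes and 22 genes of the unfolded protein response, -0.05 for 15 complement and 9 class II genes, -0.06 for 17 heat shock genes, -0.08 for 25 hypoxia and glycolysis genes, -0.11 for sterol and growth factor genes, -0.22 for 19 replication-dependent histone genes and -0.01 for 11 reference genes. Of the other cell type markers, 2 of 6 endothelial, 4 of 7 epithelial, 1 of 7 lymphocyte and 6 of 9 muscle, neural and adipocyte genes were at or above the median on the N154S dsDNA array, against 1, 4, 1 and 4 on the control array. Their part in the differences was not tested.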
